A study of Homo sapiens with 3 samples.

Results

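The insulin and insulin-like growth factor (IGF) genes followed here are 10: the ligand gene IGF1, the receptor genes IGF1R and INSR, the receptor substrate genes IRS1 and IRS2, and the binding protein genes IGFBP2, IGFBP3, IGFBP4, IGFBP5 and IGFBP6. They were taken by gene symbol from the annotation of the array's probes, which gave 11 probes of the 18468 that carry a symbol and 10 of 16225 named genes; IGF1R had 2 probes and every other gene 1. They were measured in undifferentiated human embryonic stem (ES) cells of the lines H9, BG03 and ES01 (replicates 1, 2 and 3), which form 1 group with 1 Illumina bead array per line. All 3 were grown on irradiated mouse embryonic fibroblasts in DMEM/F12 medium with 20% serum replacement and FGF2, and none was given a further treatment according to the labels. The study's design also names mouse ES cells and EpiSCs (epiblast stem cells), which are not analysed here, so the comparisons below are between the human lines. The labels describe each line as a cell line only, so line, culture and array differences cannot be told apart.

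IGF1 and insulin act through related receptor tyrosine kinases, the products of IGF1R and INSR. The activated receptors phosphorylate the docking proteins IRS1 and IRS2, which pass the signal to phosphatidylinositol 3-kinase (PI3K) and AKT. The secreted IGF-binding proteins hold IGFs outside the cell and control how much reaches the receptor. Human ES cells are commonly kept in media that contain insulin, and IGF signalling is known to sustain their survival and self-renewal.

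The sequence before the gene start is shown for 4 members: IGF1 and IRS2, whose probes were not above background, IGFBP4, far above it, and IGFBP5, whose fold between lines was the largest of the members at the background threshold used. The sequences are from RefSeq (GRCh38.p14), 5′ to 3′ on the gene's own strand, and cover chr12:102481840-102481997, minus strand, chr13:109786584-109786833, minus strand, chr17:40443200-40443449, plus strand and chr2:216695550-216695799, minus strand. Capitals mark the GC box GGGCGG, the core letters bound by SP1, and the TATA box TATAAA, both searched on both strands, where they read CCGCCC and TTTATA. The 2 motifs cannot overlap each other, but neighbouring GC boxes can share letters.
IGF1: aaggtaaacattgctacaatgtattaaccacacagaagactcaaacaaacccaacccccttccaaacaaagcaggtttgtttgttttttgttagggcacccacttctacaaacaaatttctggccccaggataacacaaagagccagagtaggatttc
IRS2: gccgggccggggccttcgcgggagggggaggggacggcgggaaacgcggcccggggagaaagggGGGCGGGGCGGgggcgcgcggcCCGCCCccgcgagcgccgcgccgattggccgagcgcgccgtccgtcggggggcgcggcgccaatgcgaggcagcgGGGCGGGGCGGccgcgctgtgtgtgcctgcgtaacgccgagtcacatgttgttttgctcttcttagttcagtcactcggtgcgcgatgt
IGFBP4: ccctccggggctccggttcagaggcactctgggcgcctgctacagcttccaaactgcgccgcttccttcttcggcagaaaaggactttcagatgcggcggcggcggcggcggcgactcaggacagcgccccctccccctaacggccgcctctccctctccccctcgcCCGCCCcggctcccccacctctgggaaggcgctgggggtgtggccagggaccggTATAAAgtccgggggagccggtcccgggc
IGFBP5: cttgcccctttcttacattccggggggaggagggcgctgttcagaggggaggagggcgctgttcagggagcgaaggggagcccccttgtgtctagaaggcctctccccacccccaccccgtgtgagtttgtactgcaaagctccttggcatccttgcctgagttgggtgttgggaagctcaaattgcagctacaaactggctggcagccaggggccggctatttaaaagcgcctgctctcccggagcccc

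All 10 members had an entry in the promoter table, and for each the 250 bases before the start were searched. For IGF1 the 158 bases that lie outside the annotated gene are printed. IGFBP2 had 3 entries and IGF1 2. For these the entry nearest the annotated gene start was searched, and the other entries are not given. The values over all promoters took the first entry listed for each gene, so the rule of choice differs. A GC box was found for 8 of the 10, all but IGF1 and IGFBP5, against 42.3% of 27305 genes' promoters. IRS2 had 5 GC boxes, IRS1 and INSR 4 each, IGF1R and IGFBP3 2 each, and IGFBP2, IGFBP4 and IGFBP6 1 each. The TATA box was found in IGFBP4 alone, 29 bases before the start, against 11.1% of all promoters. CG dinucleotides ranged from 0 in IGF1 to 48 in IGF1R, with a median of 11 over all promoters; IRS2 had 42 and IRS1 39, IGFBP3 had 32, INSR 28 and IGFBP4 24, and IGFBP6, IGFBP5 and IGFBP2 had 9, 8 and 7. The CG-rich IRS2 promoter and the CG-free IGF1 promoter thus belong to the 2 members that were not above background. These are matches of letters in a window, not shown binding sites.

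Intensities are given in the order H9, BG03, ES01 after quantile normalization, in linear units with the array background already subtracted. A probe was called above background when it passed the 95th percentile of 215 olfactory receptor probes on its own array, which was 11.2, 12.6 and 13.3 units. Of the 10 members, 8 were above background in all 3 lines and 2 in none; of all 16225 named genes, 59.8% were above background in all 3 lines and 32.2% in none. Each SD is that of the log2 values of the 3 lines (n = 3), and the number of arrays limits their precision. As technical error, the standard error (SE) over beads is that of the 200 bead types at the same intensity rank, since bead codes are not linked to genes here; the arrays held 2089034 to 2102778 beads, a median of 42 per bead type. That error covers beads within 1 array, not cultures.

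The ligand gene IGF1 was not above background in any line. Its intensities were 3.40, 11.4 and 1.13. BG03 came nearest to the threshold, at 0.906 times it, and H9 and ES01 lay at 0.303 and 0.085 times. A single probe read the gene and was not checked for reading every transcript form, so absence is not shown.

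The receptor gene IGF1R measured 48.6, 62.95 and 75.7 (log2 SD 0.32). H9 was lowest and ES01 highest, 1.56-fold above H9, a log2 difference of 0.64 with a bead SE of 0.15. BG03 lay between them, 0.37 above H9 (bead SE 0.16) and 0.27 below ES01 (bead SE 0.15) on the log2 scale. The second IGF1R probe gave 0.10, -1.67 and 0.50 and was not above background in any line. The 2 probes therefore disagree on whether the gene was detected, and the values of IGF1R rest on the first.

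INSR, the insulin receptor gene, measured 27.5, 24.1 and 23.4 (log2 SD 0.13). These values were 2.46, 1.92 and 1.77 times the background thresholds, so INSR was dim in every line. The largest difference, 0.23 on the log2 scale between H9 and ES01, was smaller than its bead SE of 0.27, and the lines could not be ordered for this gene.

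Of the substrates, IRS1 measured 86.6, 76.85 and 56.5 (log2 SD 0.32). H9 was highest and ES01 lowest, 1.53-fold apart, and the log2 difference of -0.62 (ES01 minus H9) had a bead SE of 0.14. H9 and BG03 differed by 0.17 (bead SE 0.13), which leaves their order unsettled. Between H9 and ES01, IRS1 and IGF1R thus differed in opposite directions. IRS2 gave -3.30, -5.43 and -2.90, under 0 after background subtraction in all 3, and was not above background in any line. It is read by 1 probe, so this too does not show absence.

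All 5 binding protein genes were above background in every line. IGFBP4, whose product binds both IGFs and is cleaved by the protease PAPPA, measured 1379, 1017 and 1099.95 (log2 SD 0.23). IGFBP2, the gene of a binding protein abundant in fetal life, measured 745, 525 and 584 (log2 SD 0.26). Both were highest in H9, with BG03 and ES01 lower and close together. The log2 difference BG03 minus H9 was -0.44 for IGFBP4 (bead SE 0.05) and -0.51 for IGFBP2 (bead SE 0.06). ES01 lay above BG03 by 0.11 (bead SE 0.05) and 0.15 (bead SE 0.06). The fold between H9 and BG03 was 1.36 for IGFBP4 and 1.42 for IGFBP2.

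IGFBP3, the main IGF carrier of serum, measured 239, 255 and 377 (log2 SD 0.36). ES01 stood apart, 1.58-fold above H9, with a log2 difference of 0.66 (bead SE 0.07). H9 and BG03 differed by 0.10 (bead SE 0.07). IGFBP6, which prefers IGF2 over IGF1, measured 86.6, 123 and 153 (log2 SD 0.41). Its values lay in the order H9, BG03, ES01, as those of IGF1R did, and ES01 was 1.77-fold above H9, a log2 difference of 0.82 (bead SE 0.11). BG03 was 0.51 above H9 (bead SE 0.11) and 0.32 below ES01 (bead SE 0.10).

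IGFBP5, known for its binding to extracellular matrix, measured 37.9, 22.0 and 43.3 (log2 SD 0.52). This was the largest SD of the 8 members at the threshold used, but with the 99th percentile as background, where BG03 is under the threshold of 30.8, it was 0.25, below the 0.41 of IGFBP6 and the 0.36 of IGFBP3, and with a floor of 50 units no line rose above the floor. BG03 was low, and H9 and ES01 were near each other, 0.19 apart on the log2 scale with a bead SE of 0.19. ES01 was 1.97-fold above BG03, a log2 difference of 0.98 (bead SE 0.25), and the log2 difference BG03 minus H9 was -0.78 (bead SE 0.26). In the RefSeq annotation IGFBP5 is the neighbour of IGFBP2 on chromosome 2, with 0 genes between them. Both were lowest in BG03, but ES01 was the highest line for IGFBP5 and H9 for IGFBP2.

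**Figure D1:**
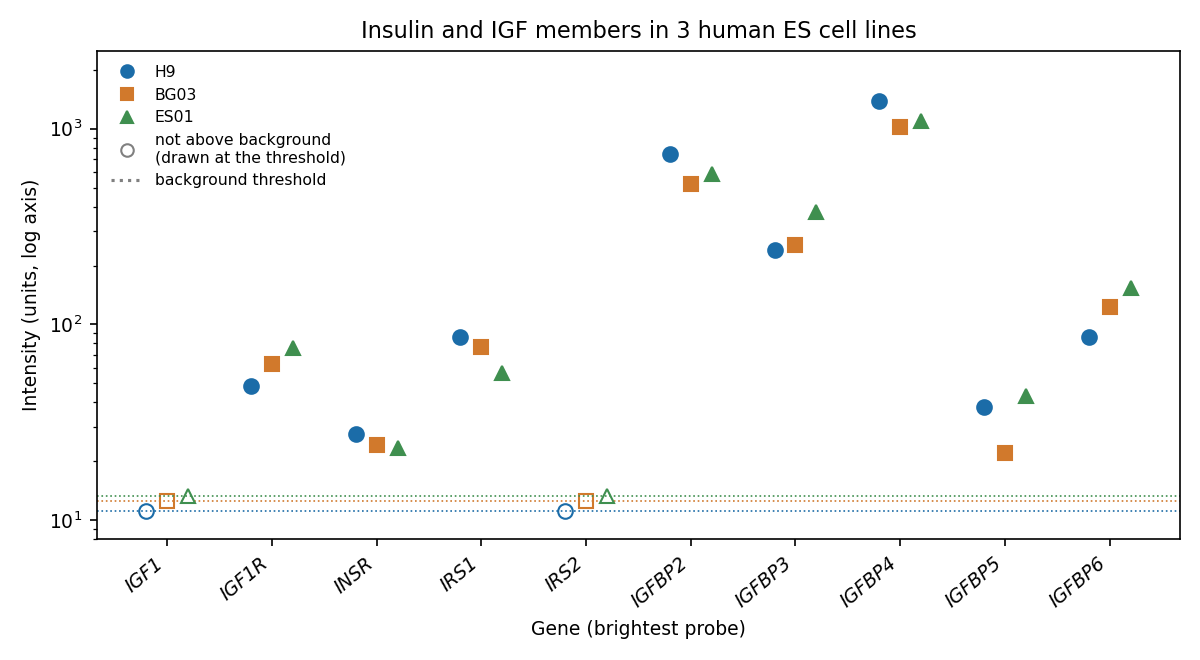
Intensity of each member's brightest probe (units, log axis) in H9, BG03 and ES01, 1 array per line; open symbols are values not above background, drawn at the threshold, and dotted lines are the thresholds of 11.2, 12.6 and 13.3 units. IGF1 and IRS2 have open symbols in every line, and the other 8 members lie above the thresholds in all 3.

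No member differed 2-fold between lines. Of 11004 genes above background in at least 1 line, 3.24% differed at least 2-fold when BG03 was set against H9, 5.14% for ES01 against H9, 3.75% for ES01 against BG03, and 8.29% in any of these pairs; of the 8 members above background the count was 0 in each pair. With so few members a count of 0 is near that background. There is 1 array per line, so none of these differences has a replicate check and no test between lines exists. IGFBP5 came nearest to the 2-fold limit, and it passed that limit when arrays were scaled to the median of detected probes, at a log2 difference of 1.03 between ES01 and BG03. At 1.5-fold, 5 of the 8 members differed in some pair (IGF1R, IRS1, IGFBP3, IGFBP5 and IGFBP6), against 26.0% of all genes.

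The members varied in different directions. Counted by value alone, and so including INSR and the H9 and BG03 values of IRS1, whose differences lay within or near bead error, H9 was the highest line for 4 of 8 (INSR, IRS1, IGFBP2 and IGFBP4) and ES01 for the other 4 (IGF1R, IGFBP3, IGFBP5 and IGFBP6); among all genes the shares were 31.9% and 36.0%. BG03 was the highest line for 0 of the 8, against 31.8% of genes, and the lowest for IGFBP2, IGFBP4 and IGFBP5, against 27.2%. These counts depend on the scaling: with the arrays scaled to the median of all probes, H9 was highest for 5, BG03 for 2 (IGF1R and IGFBP6) and ES01 for 1 (IGFBP3). Those medians were 3.5, 3.5 and 4.4 units as deposited, lower than the background thresholds of 11.2 to 13.3 units, so this scaling is set by probes below background. Under it, 18.1% of the genes past 2-fold between ES01 and BG03 were higher in ES01, against 60.5% after quantile normalization. With the 99th percentile as background BG03 was highest for INSR. H9 was the lowest line for 3 of the 8 and ES01 for 2, against 37.6% and 35.0% of genes. The order H9, BG03, ES01 from low to high held for IGF1R, IGFBP3 and IGFBP6, and for 21.7% of all genes; with the scaling to all probes it held for IGFBP3 only, since ES01 minus BG03 turned to -0.06 for IGF1R and -0.03 for IGFBP6. The median log2 difference over the 8 members was -0.18 for BG03 minus H9, -0.02 for ES01 minus H9 and 0.21 for ES01 minus BG03, where all genes had 0.03, 0.01 and -0.01. The pairs share arrays, so these 3 medians are not independent.

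All 5 binding protein genes were higher in ES01 than in BG03, as were 49.1% of all genes, but only IGFBP3 and IGFBP5 remained so when the arrays were scaled to the same median of all probes. That scaling multiplies each array by a constant, so it shifts the differences of these genes and the median of all genes alike. For this pair the median became -0.34, and the differences 0.22 (IGFBP3), 0.66 (IGFBP5), -0.03 (IGFBP6), -0.20 (IGFBP2) and -0.23 (IGFBP4). That all 5 lie above this median therefore restates the values as deposited and is no further check. Between BG03 and H9 the binding proteins split, with IGFBP3 and IGFBP6 higher in BG03 and the other 3 lower. These directions held as deposited and with the scaling to detected probes. The scaling to all probes could not alter this pair, since both arrays had a deposited median of 3.5 units. Between ES01 and H9, IGFBP3 and IGFBP6 were higher and IGFBP2 and IGFBP4 lower in ES01 under each normalization, while IGFBP5 turned from 0.19 to -0.13 with the scaling to all probes.

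**Figure D2:**
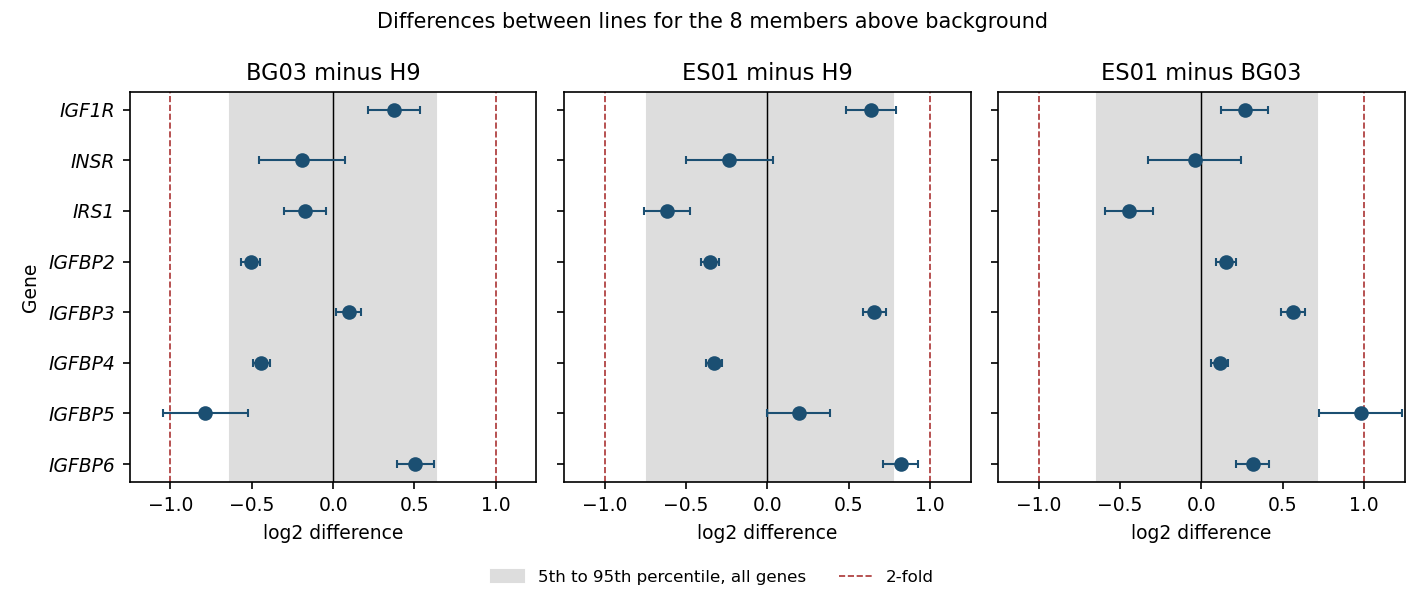
Log2 difference between each pair of lines for the 8 members above background; bars are the bead SE of the difference, grey bands run from the 5th to the 95th percentile of all 11004 genes and dashed lines mark 2-fold. IGFBP5 lies outside the grey band where BG03 is compared with H9 and with ES01, IGFBP6 lies outside it between ES01 and H9, and no point passes the dashed lines.

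Set beside genes of like intensity after quantile normalization, most members varied more than the typical gene. The log2 SD of 7 of the 8 members was above the median SD of the 500 genes nearest in mean intensity, and that of 0 was above the 90th percentile of those genes. With 8 members a count of 0 is near the share that the 90th percentile sets for any genes. For IGFBP6 the SD of 0.41 compared with a median of 0.20, for IGFBP3 0.36 with 0.17, for IGFBP2 0.26 with 0.14, and for IGFBP4 0.23 with 0.13. For IGFBP5 the SD of 0.52 compared with a median of 0.30, and for IGF1R and IRS1, each at 0.32, with 0.25 and 0.24. INSR was the exception, at 0.13 against 0.37. These SDs depend on the processing. With the scaling to all probes they were lower for IGF1R (0.21), IGFBP3 (0.19), IGFBP5 (0.43) and IGFBP6 (0.29). They were higher for INSR (0.28), IRS1 (0.50), IGFBP2 (0.31) and IGFBP4 (0.29). The comparison with genes of like intensity was not repeated under that scaling. A median has as many genes above it as below. This is a description of these arrays and carries no p.

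**Figure D3:**
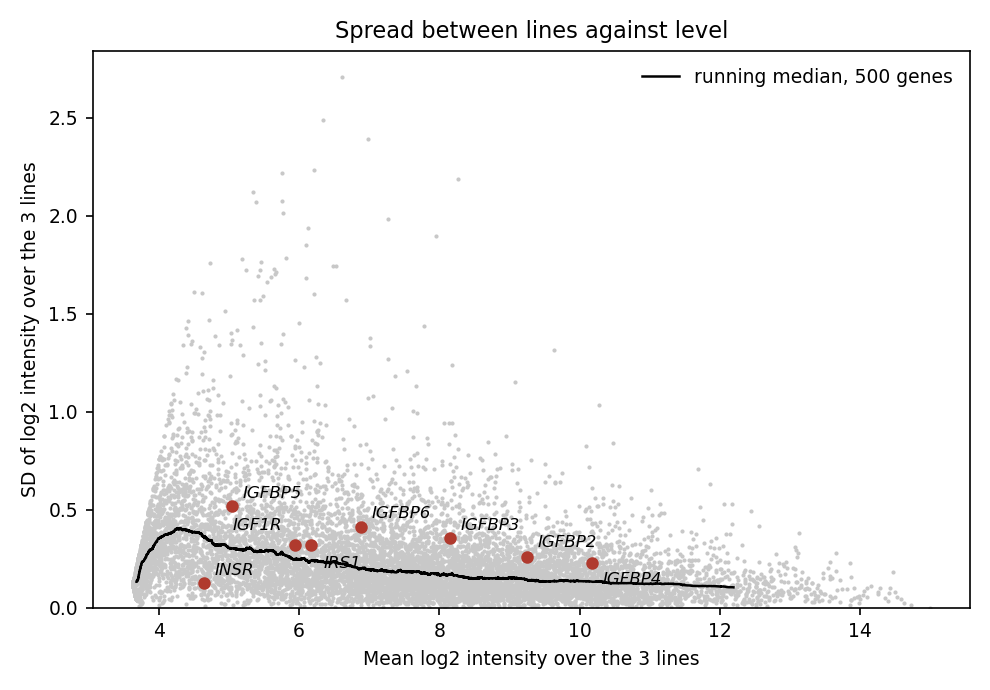
SD of log2 intensity over the 3 lines against mean log2 intensity for 11004 genes (grey), with the running median of 500 genes (line) and the 8 members above background (red). The members except INSR lie above the running median, and many genes of like intensity lie higher still.

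The wider pathway was read from a list of 52 further genes, of which 48 had a named probe. Of these, 34 were above background in all 3 lines, 2 in some (RICTOR in H9 and RPS6KB1 in ES01) and 12 in none. The share above background in all lines was 70.8%, against 59.8% of all named genes, of which 32.2% were above it in no line. The counts per role below are to be read beside the same shares, since each role holds few genes. At least a 2-fold difference between some pair of lines was found for 2 of the 36 above background, against 8.29% of all genes. The other ligand genes were not above background: IGF2 gave -1.57, -4.07 and -6.80, and INS, the insulin gene, 6.83, 3.33 and 6.07. Each has 1 probe, so absence is not shown. The receptor genes IGF2R and INSRR were above background in every line.

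Among further genes of the binding protein family, IGFBP1 (4.93, 2.93 and 5.53) was not above background, nor were IGFBPL1 and IGFALS. IGFBP7, a secreted protein with low affinity for IGFs, measured 81.1, 25.7 and 72.3 (log2 SD 0.91). BG03 was low, as for IGFBP5: it lay 3.16-fold below H9 and 2.82-fold below ES01. With a floor of 50 units, which lies above the BG03 value, these folds were 1.62 and 1.45, and IGFBP7 was no longer past 2-fold. PAPPA, the protease that cleaves IGFBP4 and IGFBP5, measured 34.8, 29.4 and 34.7 (log2 SD 0.14), and its relative PAPPA2 was not above background.

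Next to the receptor, 9 of 10 adaptors and regulators were above background in all lines, SHC1 among them (1428, 1525 and 1616.5, log2 SD 0.09). IRS4, a substrate related to IRS1, was not (-4.73, -7.80 and -5.73). So of the IRS genes listed, IRS1 was the one detected. IRS2 and IRS4 are each read by 1 probe, so their absence is not shown. Of 9 measured PI3K and AKT genes, 7 were above background in all lines. PIK3CB, a catalytic subunit, measured 92.6, 88.2 and 109 (log2 SD 0.16), and PIK3R1, the regulatory subunit that binds phosphorylated IRS proteins, 148, 144 and 88.8 (log2 SD 0.42). PIK3R1 has 4 probes, and these values are those of the brightest. ES01 was lowest for PIK3R1 and for 35.0% of all genes.

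Further down, 9 of 13 mTOR, FOXO and GSK3 genes were above background in all lines. TSC1, a brake on mTOR, was nearly even at 99.6, 104 and 94.5 (log2 SD 0.07), while its partner TSC2 was not above background. TSC2 is read by 1 probe, so its absence is not shown. FOXO4, a transcription factor that AKT holds out of the nucleus, measured 86.6, 132 and 173 (log2 SD 0.50). Its values rose in the order H9, BG03, ES01, as did those of 21.7% of all genes. ES01 was 2-fold above H9, just at the limit. FOXO4 fell short of that limit as deposited and with either other scaling, at 1.59-fold with the scaling to all probes. The 3 genes of IGF2 mRNA-binding proteins were above background in every line, with IGF2BP1 at 24.6, 24.8 and 33.1 (log2 SD 0.24) and IGF2BP2 at 1749.6, 1745 and 1848 (log2 SD 0.05).

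**Figure D4:**
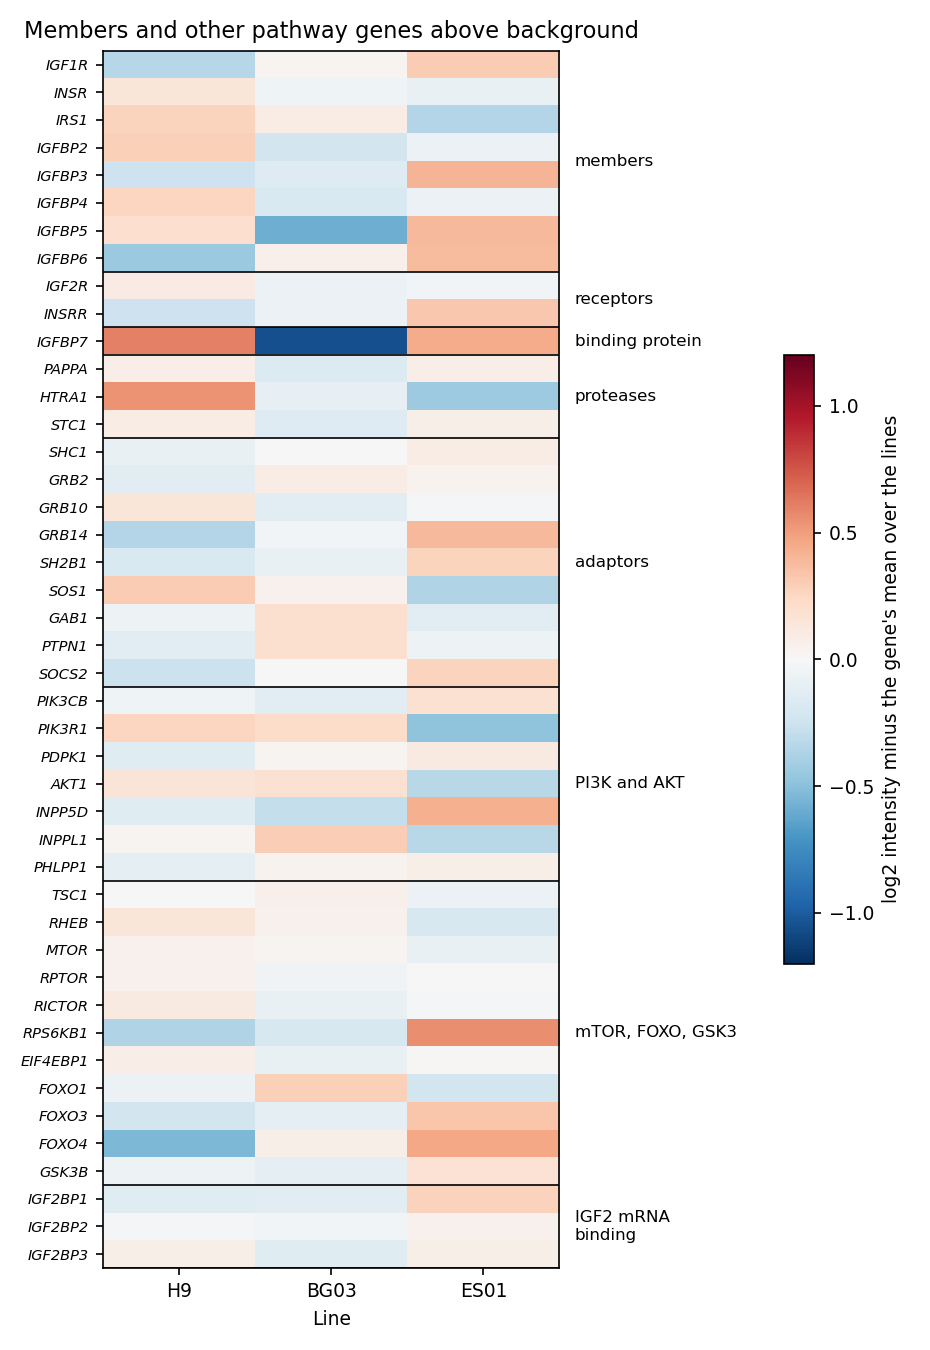
Log2 intensity minus the gene's mean over the 3 lines (colour) for the 8 members and 36 other pathway genes above background in at least 1 line, grouped by role. IGFBP7 has the deepest blue, in BG03, and IGF1R, IGFBP6, GRB14 and FOXO4 run from blue in H9 to red in ES01 after the quantile normalization plotted here.

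Markers of the labelled cell type were present: 8 of 8 measured pluripotent cell genes were above background in all lines, POU5F1 and NANOG included. Of these, 1 differed at least 2-fold in some pair, against 8.29% of all genes. It was ZFP42 (364, 780 and 247), highest in BG03 and 3.15-fold above ES01 there. Some genes listed as markers of other cells were above background too. The counts of each marker list are to be read beside all named genes, of which 59.8% were above background in all lines and 32.2% in none. Of 12 fibroblast and stroma markers, 8 were above background in all lines and 2 in some (DCN in H9 and ES01, LUM in BG03), and COL3A1 and POSTN were above it in none. Their summed intensity was 5589, 4161 and 5196, highest in H9 and lowest in BG03. That sum is weighted to its brightest genes, VIM (2346, 1476 and 2104) and FN1 (1332.5, 959 and 1044), which had the same order. It therefore does not measure the amount of stroma. The single markers did not move together: of the 10 above background in some line, 5 were higher and 5 lower in BG03 than in H9, and COL1A1, COL1A2, DCN and LUM differed at least 2-fold in some pair. COL1A1 (18.6, 22.0 and 43.2) and COL1A2 (310, 229 and 582) were highest in ES01, LUM (10.1, 48.9 and 10.1) in BG03, and COL6A1 (711, 465 and 465) in H9. The part of such cells, if present, in the binding protein values was not tested, nor was the part of RNA from the mouse feeder cells. Of 9 measured primitive and visceral endoderm markers, 8 passed the background threshold in every line and SOX7 did so in none, with sums of 1361, 1371 and 1355 that hide opposite differences between markers. Of these, 4 differed at least 2-fold in some pair: TTR (81.5, 12.8 and 21.0), APOA1 (309, 287 and 147) and APOA2 (134, 69.98 and 46.9) were highest in H9, and AFP (148, 322 and 383) was lowest there. In bulk RNA, fewer cells that express a gene and less RNA per cell cannot be told apart.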

How the data were processed

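Total RNA extracted with TRIzol was labelled with Cy3 for Illumina arrays, per the labels' protocols. The authors deposited 1 intensity per probe and line, with background subtracted (26.3% to 33.8% of values are below 0); the sources used here do not give their software or scaling. Bead files, with 1 green intensity for each bead per the file headers, served for technical error only; beads farther than 3 median absolute deviations from the median of their type were dropped. Replicate numbers follow accession order. No slide or scan is named.

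Leaving out 4 bacterial control probes, limma 3.58.1 (R 4.3.3) brought the arrays to the same quantiles. Names came from the platform annotation (18468 probes with 1 symbol, 0 with several, 28821 unnamed here). A gene was read by the probe with the highest mean. Values under the background threshold were set to it before log2, and a gene entered the differences if any line was above background. With 1 array per line no test was made. Steps were tested on simulated data. Python 3.11.15, numpy 2.4.6, pandas 2.3.3 and matplotlib 3.10.9 did the rest.

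The members and gene lists were chosen with earlier results of these data known. Named genes are all members, the first 2 measured genes of each pathway role, the first 4 of each marker list and list genes differing at least 2-fold; some are given by count only, and others named were chosen after their values were seen. Alternatives covered normalization, background, probe rule, floor, filter, fold limit and leaving out each line.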

Additional observations from a re-analysis of the deposited data

How the results depend on the processing

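The count of 8 members above background in all lines was 8 under 9 of 10 alternatives and 6 with the 99th percentile background, where INSR and IGFBP5 fell out in some line. Some of these alternatives could not lower such a count. A floor does not enter it, scaling an array by a constant moves its threshold alike, and leaving out a line can only raise it. The count of 0 members differing 2-fold stayed 0 under 11 of 13 alternatives. It was 1 (IGFBP5) after scaling to the median of detected probes and 5 with a 1.5-fold limit. Several of the 11 could not have changed it. Leaving out a line only removes pairs, the filter to genes above background in all 3 lines only removes genes, and a floor of 50 units only shrinks differences. Without a filter, IGF1 and IRS2 enter at thresholds at most 1.18-fold apart. Of other pathway genes, 34 were above background in all lines, and 28 to 34 under the alternatives. The count of 2 pathway genes differing 2-fold was 1 with the values as deposited and with the scaling to detected probes (FOXO4 lost in both) and with a floor of 50 units (IGFBP7 lost), 3 with the scaling to all probes (IGFBP7, HTRA1 and PIK3R1) and with the second background set (IGFBP7, RPS6KB1 and FOXO4), 9 with a 1.5-fold limit, and 1 to 1 when each line was left out in turn, which leaves 1 pair of lines: IGFBP7 without H9 or without ES01, and FOXO4 without BG03. The mean level of each member moved by less than its SD over lines in 92 of 100 cases. The other 8 were IGF1 and IRS2 (at the floor by construction) and, with a floor of 50 units, INSR and IGFBP5. Leaving out 1 of 3 lines cannot move a mean by as much as that SD, so those cases were fixed in advance. Scaling to the median of all probes, which lay below the background thresholds, was added after seeing the data. It moved the median of all genes to -0.27 (ES01 minus H9) and -0.34 (ES01 minus BG03). No paired analysis was possible because the lines form 1 group. Dim signal limits INSR and IGFBP5, under 4 times background in every line.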
